A study of Mus musculus with 32 samples.

Results

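The 9 genes described here, Ms4a3, Ms4a4a, Ms4a4b, Ms4a4c, Ms4a6b, Ms4a6c, Ms4a6d, Ms4a7 and Ms4a14, are the members of the mouse MS4A membrane family that were picked by symbol from both RNA-seq gene tables, out of 23620 genes that the tables share. They were chosen from a readout, with their RNA levels and IGF2BP3 eCLIP peaks in view, so these values are given as descriptions and no test was run on them. MS4A proteins are small proteins that cross the membrane several times, and some work within receptor complexes of blood cells. The founding members are CD20 on B cells, encoded by Ms4a1, and the beta chain of the high-affinity IgE receptor of mast cells and basophils, encoded by Ms4a2. Several others, among them Ms4a4a, the Ms4a6 genes and Ms4a7, are known from monocytes and macrophages, Ms4a3 from granulocyte and monocyte progenitors, and Ms4a4b from T cells. IGF2BP3 is an RNA-binding protein of fetal tissues and of leukemia that is known to favor CA-rich sequences.

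All cells carried MLL-Af4, a fusion of MLL with mouse Af4 delivered by retrovirus that transforms blood progenitors. Lin- cells were lineage-depleted bone marrow cells, transduced, selected with G418 and grown in culture with cytokines. CD11b+ cells were selected on magnetic beads from splenic tumors of mice that had received transduced marrow from 5-FU-treated donors. Donors were C57BL/6J or I3KO females and recipients irradiated B6.SJL-Ptprc-Pep3/BoyJ females, all 8 weeks old. Each cell type gave 3 WT and 3 I3KO RNA-seq libraries. I3KO is a germline deletion of Igf2bp3 on both alleles that arose from a floxed gene and a leaky Vav1-Cre. The deletion, between loxP sites that flank exon 2, was therefore in every cell of the I3KO donors, not in their blood cells alone. The recipients were not I3KO. IGF2BP3 eCLIP, which maps the RNA crosslinked to the protein, was made from WT cells that express MLL-Af4. It comprised 6 Lin- libraries, 3 biological and 3 technical replicates, and 4 CD11b+ libraries, 2 biological and 2 technical replicates, each with a size-matched input. The methods give splenic tumors as the source of CD11b+ cells, without setting the eCLIP apart, while the track names of the eCLIP libraries of both cell types start with the letters bm.

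The filtered peaks, those that remained after the authors removed peaks that overlap a peak of the input, numbered 4040 to 10042 per Lin- library and 7085 to 10054 per CD11b+ library, against 217 to 1885 peaks per input. Read depth is unknown, so a gene with no peak was not detected as bound and is not shown to be unbound. The RNA-seq level is the mean normalised count over the 6 libraries of both genotypes, with no SD, and it was normalised separately for each cell type. Levels are therefore set across cell types only as the rank within a table or, for sums over markers, as a percent of all its counts. Igf2bp3 itself, at a mean of 2041 in Lin- and 1355 in CD11b+ over both genotypes, lay above 86.7% of genes in each table, and its difference between genotypes, which the tables hold as the authors' comparison, was not used here.

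The labels of the cells were set against marker genes, by rank within each table. Of the 4 myeloid markers, Lyz2, a lysozyme, lay above 99.7% of listed genes in Lin- and higher still in CD11b+, Csf1r above 97.9% and 99.5%, and Adgre1 above 77.4% and 93.3%. Itgam, which encodes CD11b, was not listed for Lin- and lay above 41.8% of genes for CD11b+, with a mean normalised count of 17.0. Of the 4 progenitor markers, Kit lay above 97.4% in Lin- and 76.6% in CD11b+ and Cd34 above 98.3% and 86.2%, while Elane lay above 99.3% and 99.9%, and Mpo lay above 99.9887% and 99.9845%. Their sum made up 0.490% of all mean normalised counts in Lin- and 0.640% in CD11b+. The 3 B cell markers made up 0.000132% of all counts in Lin- and 0.00172% in CD11b+, and 1 and 3 of them reached a mean of 10. The mast cell and basophil markers made up 0.0139% in Lin-, with 3 of 3 listed, and 0.00170% in CD11b+, with 2 listed. T cell markers made up 0.000140% and 0.000177%, with Cd3e, a defining gene, not listed for Lin- and at 5.63 for CD11b+. Cd2, with the largest mean of them, lay above 47.3% of genes in Lin- and 45.0% in CD11b+, and Cd3d above 14.2% and 31.6%. S100a8, of granulocytes, lay above 87.0% and 99.9% of genes, Ly6g above 40.6% and 55.8%, and Hba-a1, an alpha-globin gene of erythroid cells, above 32.5% and 85.9%.

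Regions were made by merging peaks of 1 gene and strand that overlapped by at least 1 nt in any library of a cell type. The sequences below are shown because they hold the regions found in both cell types or in every CD11b+ library, together with the region of smallest CLIPper p on Ms4a4c. They were read on the gene's strand from RefSeq's GRCm38 assembly, the build of the peak files, and lie in the family's cluster on chromosome 19. In the intronic sequences and the Ms4a4c window, capitals mark every CACA or ACAC, and in the splice site sequence they mark the coding exon.
Ms4a6c, intron, chr19:11479654-11479767, plus strand, CD11b+: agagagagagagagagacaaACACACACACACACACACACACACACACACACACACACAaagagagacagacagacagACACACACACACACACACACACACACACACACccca
Ms4a6c, intron, chr19:11480510-11480596, plus strand, CD11b+: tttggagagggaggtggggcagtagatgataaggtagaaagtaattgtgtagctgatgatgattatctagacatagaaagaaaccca
Ms4a6d, intron, chr19:11588567-11588644, minus strand, CD11b+: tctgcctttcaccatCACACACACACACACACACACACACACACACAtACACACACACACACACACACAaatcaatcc
Ms4a3, first intron, chr19:11640350-11640424, minus strand, Lin-: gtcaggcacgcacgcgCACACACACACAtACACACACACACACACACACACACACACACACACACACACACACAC
Ms4a6c, intron and coding exon, chr19:11472346-11472421, plus strand, Lin-: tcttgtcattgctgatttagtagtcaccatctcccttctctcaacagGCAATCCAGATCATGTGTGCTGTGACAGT
Ms4a4c, 30 bases of the 3′ UTR at the peak summit, chr19:11426352-11426381, plus strand, CD11b+: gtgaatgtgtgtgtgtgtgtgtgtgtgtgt

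IGF2BP3 peaks on the family were found mainly in CD11b+ cells. In CD11b+ libraries, 35 filtered peaks lay on 6 of the 9 genes and merged into 19 regions, whereas in Lin- libraries 5 peaks lay on 2 genes and merged into 3 regions. Over all listed genes, 25.6% had a filtered peak in CD11b+ and 26.5% in Lin-, and among genes with a mean normalised count of at least 10 these shares were 37.1% and 39.8%. All of the 6 bound genes were at or above that level in CD11b+, as were 8 of the 9 members. Because the members were picked with their peaks in view, nothing is read from their excess over these shares. No peak was called on any member in any of the 10 inputs, and the input filter removed none of the members' peaks.

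**Figure D1:**
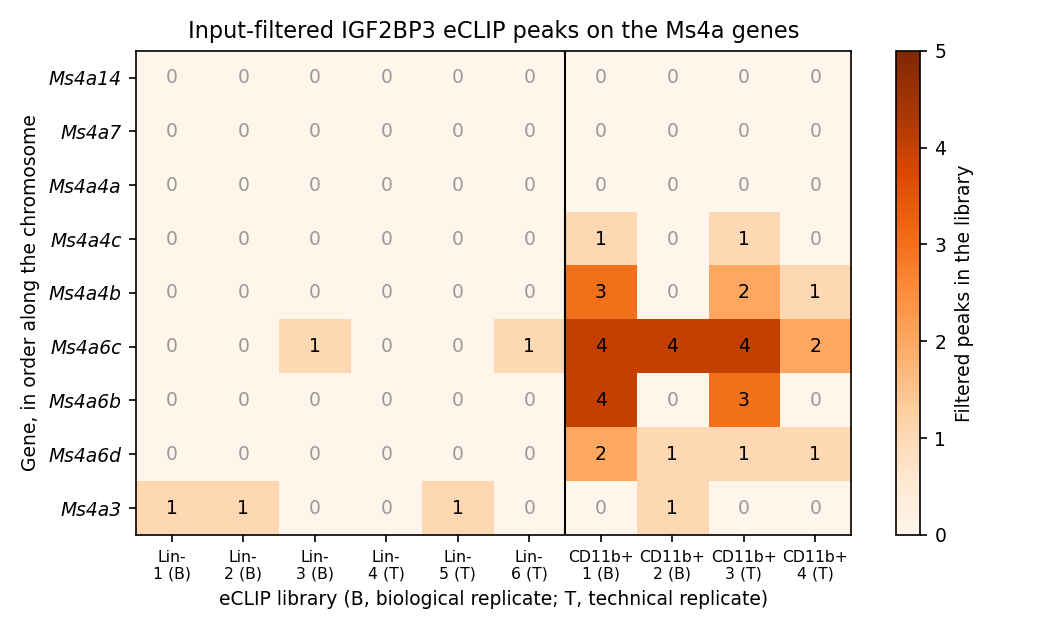
Number of input-filtered IGF2BP3 eCLIP peaks on each Ms4a gene (rows, in order along chromosome 19) in each of the 10 eCLIP libraries (columns, with biological replicates marked B and technical replicates T), where darker orange stands for more peaks. Ms4a6c had 4, 4, 4 and 2 peaks in the CD11b+ libraries, and Ms4a14, Ms4a7 and Ms4a4a had none in any library.

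Per 10000 filtered peaks of the library, the family held 16.4, 5.97, 14.5 and 5.65 peaks in CD11b+ replicates 1 to 4, a mean of 10.6 ± 5.63 (SD, n = 4). In the Lin- libraries the share ran from 0 to 2.22, with a median of 1.25 and a mean of 1.21 ± 0.729 (SD, n = 6). The lowest CD11b+ library held 5.65 and the highest Lin- library 2.22. Because the members were picked with these peaks in view, nothing is read from that gap. CD11b+ replicates 1 and 3 stood well above replicates 2 and 4. Both n count technical as well as biological replicates, and the labels do not say which library a technical replicate repeats.

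**Figure D2:**
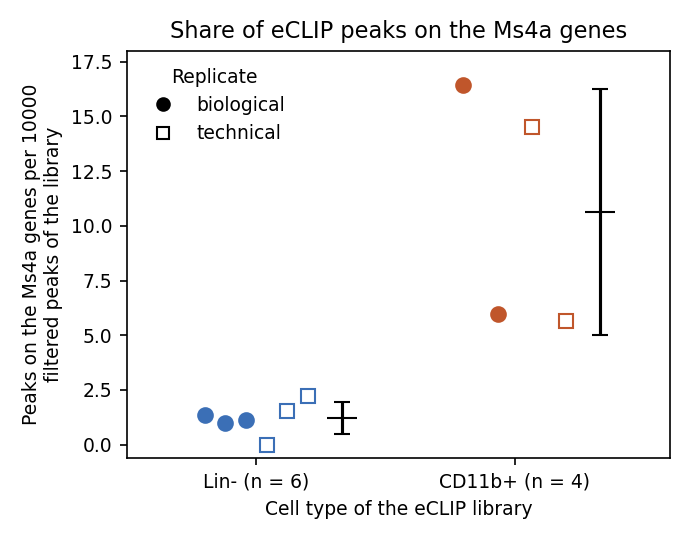
Filtered peaks on the 9 Ms4a genes per 10000 filtered peaks of each eCLIP library, with filled circles for biological and open squares for technical replicates and bars for the mean ± SD. The 4 CD11b+ libraries lie between 5.65 and 16.4 and the 6 Lin- libraries between 0 and 2.22.

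Of the bound members, 5 had more regions in CD11b+ than in Lin- and 1, Ms4a3, had fewer. Among the 8963 genes of both tables with a region in either cell type, 37.0% had more regions in CD11b+. The median over bound members was 3 regions per gene in CD11b+, where the median over all 7341 bound genes was 1, and 17.9% of those had 4 or more. In Lin-, the 2 bound members had 1 and 2 regions, and the median over 7944 bound genes was 2.

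The Ms4a6 genes of monocytes and macrophages carried most of the peaks. Ms4a6c had the most of any member, with 4, 4, 4 and 2 filtered peaks in CD11b+ replicates 1 to 4, in 6 regions. In Lin- cells it had 1 peak each in replicates 3 and 6 and none in the other 4 libraries. Ms4a6d had 2, 1, 1 and 1 peaks in the CD11b+ libraries, in 2 regions, and none in Lin-. Both genes were therefore bound in each CD11b+ library, including both biological replicates.

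Ms4a6b, next to Ms4a6c in the cluster, had 4, 0, 3 and 0 peaks in CD11b+ replicates 1 to 4, in 5 regions. Ms4a4b had 3, 0, 2 and 1 peaks, in 4 regions, and Ms4a4c had 1, 0, 1 and 0, in 1 region. No Lin- library held a peak on these 3 genes. Their peaks lay in replicates 1 and 3, except for 1 Ms4a4b peak in replicate 4. In the CD11b+ libraries, 5 regions on the members were held by exactly 2 libraries, and in each case these were replicates 1 and 3. Over all genes, 3995 CD11b+ regions were held by exactly 2 libraries, of which 33.9% were in replicates 1 and 3 and 35.9% in replicates 2 and 4, and no other pair held more than 12.9%. With biological replicate 2 as the only other biological library, the peaks on Ms4a6b, Ms4a4b and Ms4a4c thus rest on 1 biological replicate and technical libraries.

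Ms4a3, the progenitor gene of the family, was the one member bound in more Lin- than CD11b+ libraries. It had 1 peak in each of Lin- replicates 1, 2 and 5 and none in replicates 3, 4 and 6, and 1 peak in CD11b+ replicate 2 alone. Replicates 2 and 5 shared a region of 13 nt in an intron 310 nt before the gene end, chr19:11629800-11629812. The CLIPper p was 5.40e-19 in replicate 2 and 0.0228 in replicate 5. The pair of replicates 2 and 5 was also the commonest among all genes, with 28.2% of the 3769 Lin- regions held by exactly 2 libraries. Ms4a4a and Ms4a7, of macrophages, and Ms4a14 had no peak in any library.

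Along the genes, the regions were largely intronic. In CD11b+, 17 of 19 regions lay wholly in introns, 1 reached into a coding exon and 1 lay in a 3′ UTR. The share that overlapped an exon was 10.5% (exact binomial 95% confidence interval 1.30% to 33.1%, counting error only), and it was 24.7% over all placed CD11b+ regions. In Lin-, 1 of 3 regions overlapped an exon, against 63.0% of all placed regions. The middle of 9 of the 19 CD11b+ regions, 47.4%, and of 2 of the 3 Lin- regions was within 100 nt of a splice site, and over all regions on genes with a splice site these shares were 21.7% in CD11b+ and 66.2% in Lin-. Exons were those of the basic GENCODE set, and 4 of the intronic CD11b+ regions overlap a noncoding exon of a transcript that is in the comprehensive set alone.

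**Figure D3:**
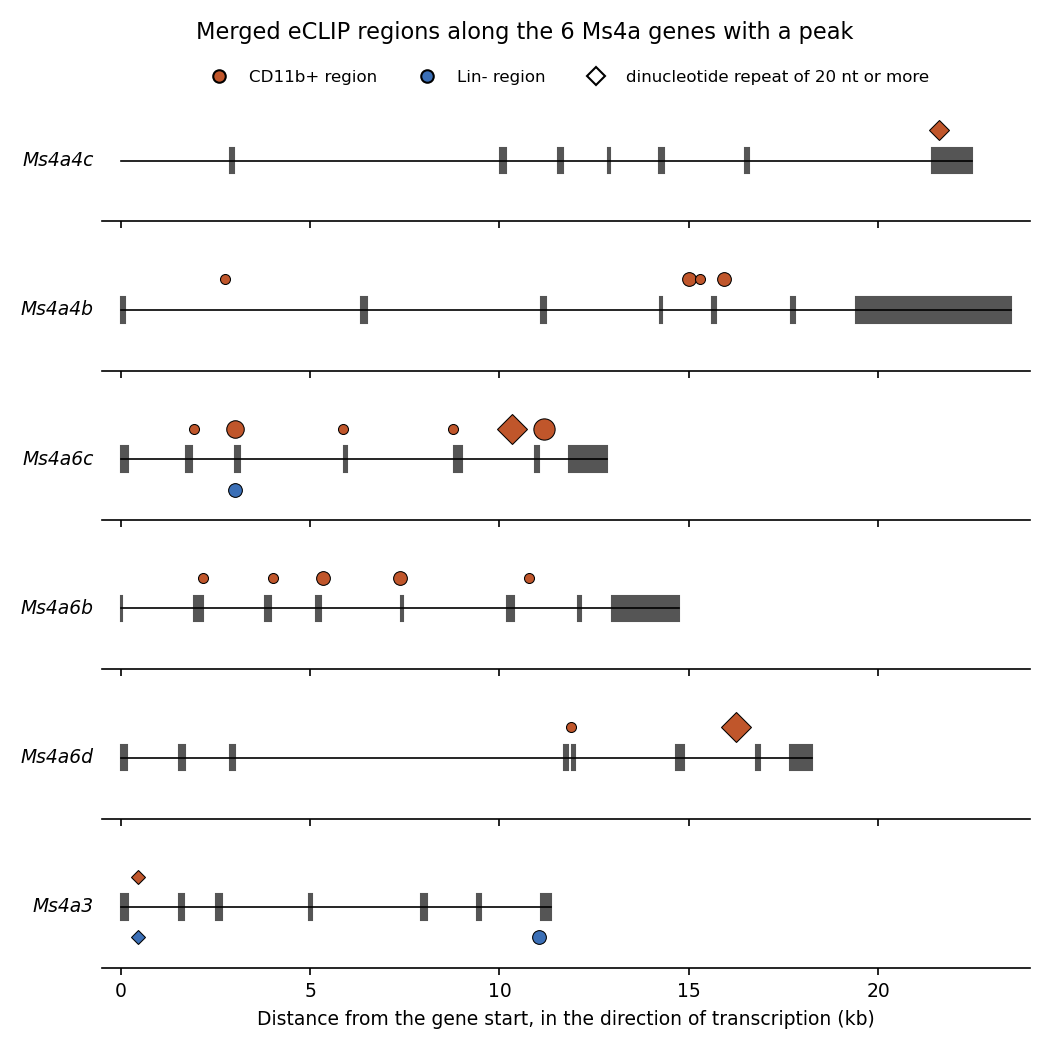
Position of merged eCLIP regions on the 6 Ms4a genes with a peak, as distance in kb from the gene start, with exons as gray boxes, CD11b+ regions above and Lin- regions below the line, larger symbols for regions held by more libraries and diamonds for regions with an alternating CA or GT stretch of at least 20 nt. Of 19 CD11b+ regions, 17 lie wholly in introns, and the largest symbols are on Ms4a6c and Ms4a6d.

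Of the 19 CD11b+ regions, 3 held a CA stretch of at least 20 nt, on Ms4a6c, Ms4a6d and Ms4a3. The Ms4a6c intronic region of 114 nt, with an unbroken CA stretch of 39 nt, was held by all 4 CD11b+ libraries. Its smallest p was 1.10e-16, in replicate 1, and its largest 0.000198, in replicate 4. On Ms4a6d, the 78-nt intronic region held by all 4 CD11b+ libraries had a CA stretch of 32 nt. The smallest p there was 2.28e-26, in replicate 3, and the largest 0.000737, in replicate 2. Ms4a3 had a region on a CA repeat in the first intron in both cell types, 464 nt from the gene start in Lin- replicate 1 and 457 nt from it in CD11b+ replicate 2. The p there was 0.0284 in Lin- and 0.0171 in CD11b+, both close to the limit of 0.05, and each rested on 1 library.

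The 6-mer ACACAC or its overlapping partner CACACA, read on the gene's strand, was in 3 of 19 CD11b+ regions, 15.8% (exact binomial 95% confidence interval 3.38% to 39.6%), and in 17.0% of all CD11b+ regions. In Lin- it was in 1 of 3 regions, and in 8.35% of all. An alternating CA stretch of at least 20 nt was in 11.8% of all CD11b+ regions and 4.96% of all Lin- regions, and a GT stretch of that length in 15.6% and 3.20%. The members' share of CA-rich regions in CD11b+ was thus close to that of all regions. Over the whole gene bodies of the 9 members there were 9 CA stretches of at least 20 nt on the transcribed strand, and 5 of them lay in a region, 2 each in 1 region of Ms4a6c and 1 region of Ms4a6d, and 1 on Ms4a3. Longer stretches could lie outside, as a CA stretch of 49 nt elsewhere on Ms4a6c and one of 48 nt on Ms4a4c were in no region. Ms4a4a, Ms4a7 and Ms4a14, with no peak, held no such CA stretch, but neither did Ms4a4b and Ms4a6b, which had peaks.

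The smallest p on the family, 2.23e-61, belonged to the Ms4a4c region in the 3′ UTR, chr19:11426341-11426400, which was held by CD11b+ replicates 1 and 3. On the gene's strand this region was a GT repeat with a stretch of 29 nt and held neither 6-mer. It was the only one of 8 GT stretches in the members' gene bodies that lay in a region. The second Ms4a6c intronic region, 87 nt wide and 1639 nt before the gene end, had the next smallest p, 6.08e-48, in replicate 1. It was held by all 4 CD11b+ libraries, with a largest p of 0.00712 in replicate 2, and carried no CACA. The regions of smallest p on the family were therefore a GT repeat, an intronic sequence with neither repeat and a CA repeat, in that order.

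A single place on the family was bound in more than 1 library of both cell types. It lies at the 3′ splice site of a coding exon of Ms4a6c. The merged region was chr19:11472347-11472402 in CD11b+ replicates 1, 2 and 3 and chr19:11472346-11472421 in Lin- replicates 3 and 6. In CD11b+ only the replicate 2 peak crossed into the exon. The peaks of replicates 1 and 3 ended in the intron, at 11472386 and 11472391. The CLIPper p was 3.05e-07 in CD11b+ replicate 2, but 0.0241 and 0.0438 in replicates 1 and 3. In Lin- it was 0.0143 in biological replicate 3 and 0.00838 in technical replicate 6. The Lin- side thus rests on 1 biological replicate. In the Lin- sequence above, 29 of 76 bases are coding exon and the rest is the end of the intron before it, a pyrimidine-rich tract that ends in cag. Of the remaining Ms4a6b regions, those at chr19:11521812-11521876 and chr19:11523855-11523908 were each held by CD11b+ replicates 1 and 3, with their middles 39 nt and 29 nt from a splice site.

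All 9 members were listed for both cell types, with a different order in each. In Lin- all 9 reached a mean normalised count of 10, and in CD11b+ 8 did. Per kilobase of exon in Lin- cells, Ms4a3 led with 2386, followed by Ms4a6c with 789, Ms4a4a with 587, Ms4a7 with 427, Ms4a6d with 213, Ms4a6b with 201, Ms4a4c with 158, Ms4a14 with 27.2 and Ms4a4b with 15.7 mean normalised counts. In CD11b+ cells the order was Ms4a3 with 3584, Ms4a6c with 2612, Ms4a6b with 789, Ms4a4c with 656, Ms4a6d with 491, Ms4a4a with 185, Ms4a4b with 32.1, Ms4a7 with 6.14 and Ms4a14 with 0.118. Since each value is 1 mean with no SD, it cannot be said which neighbors in these orders differ beyond their spread. Ms4a3 and Ms4a6c held the first and second place in both.

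As a rank within the table, Ms4a4c, Ms4a6b, Ms4a6c and Ms4a6d stood more than 10 percentage points higher in CD11b+ than in Lin-, as did 15.8% of the 23620 shared genes. Ms4a6b, with a mean normalised count of 539 in Lin- and 2115 in CD11b+, ranked above 68.5% of listed genes in Lin- and above 91.9% in CD11b+. Ms4a4c, at 272 and 1130, stood above 61.6% and above 84.3%. For Ms4a6c the counts were 1452 and 4809 and the ranks 81.7% and 97.0%, and for Ms4a6d they were 328 and 753, with ranks of 63.2% and 78.4%.

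Ms4a7 and Ms4a14 stood more than 10 points lower in CD11b+, as did 20.0% of shared genes. Ms4a7 had a mean normalised count of 732 in Lin-, above 72.0% of genes, and of 10.5 in CD11b+, above 37.9%. Of the shared genes, 1.71% had a more negative difference in rank. Ms4a14 had 111 in Lin-, above 54.9%, and 0.480 in CD11b+, above 5.89%, and 0.169% of shared genes had a more negative difference. The genes are neighbors at the start of the members' stretch of the cluster.

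Ms4a3, Ms4a4a and Ms4a4b differed by less than 10 points between the tables. Ms4a3 had mean normalised counts of 2417 and 3630, above 88.9% and 95.6% of genes, Ms4a4a had 491 and 155, above 67.5% and 58.8%, and Ms4a4b had 74.4 and 153, above 52.1% and 58.7%. The median over the 9 members was a rank 6.65 points higher in CD11b+, and over all shared genes the median difference was -1.86 points. Of the 9 members, all lay above the middle rank in Lin- and 7 in CD11b+, but in Lin- this held for 3 when only genes with a mean of at least 10 were ranked. In bulk samples, fewer cells of a type and less RNA per cell cannot be told apart.

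**Figure D4:**
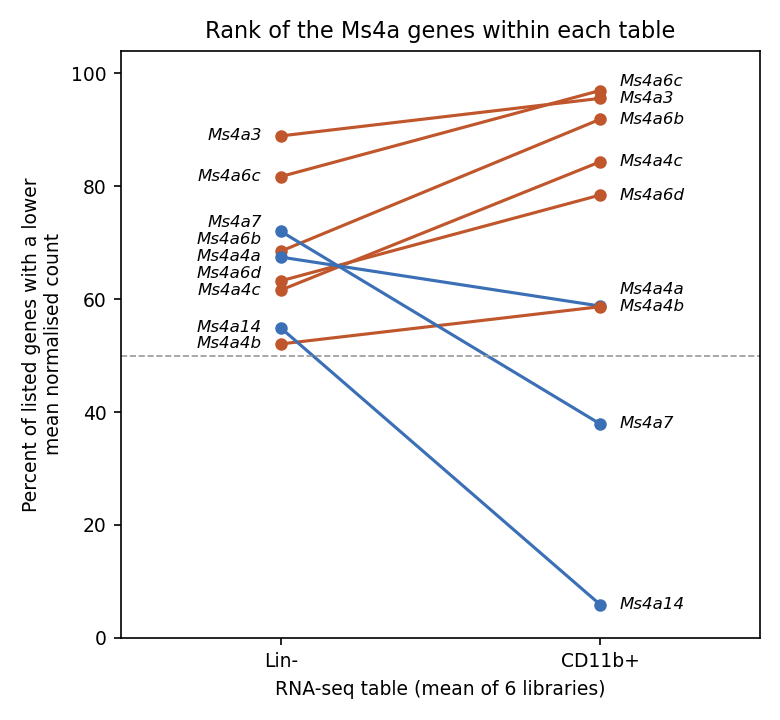
Percent of listed genes with a lower mean normalised count than each Ms4a gene, in the Lin- and the CD11b+ RNA-seq table, with orange lines for genes ranked higher in CD11b+, blue lines for genes ranked lower and a dashed line at the middle rank. Ms4a6b goes from 68.5% to 91.9%, and Ms4a14 from 54.9% to 5.89%.

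Reads from sequence that genes share may be split by the counting, which touches some of the members. Of all 50-nt words in the annotated transcripts, 10.5% for Ms4a6c and 3.57% for Ms4a6b occur in another gene, most often in each other. For Ms4a4c and Ms4a4b the shares were 8.19% and 2.40%, again mostly shared between the pair. The shares were 2.54% for Ms4a6d, 0.306% for Ms4a7 and 0 for Ms4a3, Ms4a4a and Ms4a14. RNA levels of the Ms4a6b and Ms4a6c pair, of the Ms4a4b and Ms4a4c pair and of Ms4a6d may be uncertain for that reason. The size of any effect on their counts was not measured. Sharing of intronic sequence, where most peaks lay, was not measured.

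Of 16 other genes of the family and its relatives, 8 were listed in each table, 4 of them above the middle rank in Lin- and 4 in CD11b+. Ms4a8a, a macrophage gene, lay above 6.60% of listed genes in Lin- and 59.0% in CD11b+ and was the only one with CD11b+ peaks, 2 each in replicates 1 and 3, the same libraries that held the peaks of Ms4a6b and Ms4a4c. Tmem176b, which encodes a related membrane protein of antigen-presenting cells, lay above 80.4% and 57.8% and had 1 Lin- peak, in replicate 2, and its neighbor Tmem176a lay above 71.5% and 53.5% with no peak. Ms4a20, above 72.3% and 43.4%, had no eCLIP peak and 1 peak in a CD11b+ input.

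The founding members were set beside markers of their cell types. Ms4a2, the IgE receptor chain, lay above 73.7% of listed genes in Lin- and 48.2% in CD11b+, and Cpa3, a mast cell protease, above 90.8% and 49.8%. Ms4a1, the CD20 gene, lay above 15.5% and 52.6%, and Cd79a, a B cell receptor chain, above 32.3% and 58.3%. The part of such cells in the levels of the 9 members was not tested.

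Over the 10 eCLIP libraries, the counts of Ms4a6c were most like those of Sla, Akna, Mefv, Mapre2 and Kif1b among 2053 genes with at least 10 filtered peaks. Pearson's r across libraries was 0.978 for Sla, 0.976 for Akna, 0.976 for Mefv, 0.971 for Mapre2 and 0.969 for Kif1b. The 10 points share cell type and library, and the r is a description. Akna had 4, 4, 4 and 2 peaks in CD11b+ replicates 1 to 4, as Ms4a6c did, and none in Lin-, and Sla had 5, 5, 5 and 1, with 1 each in Lin- replicates 3 and 6.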

How the data were processed

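The members and gene lists were chosen with earlier results of these data known. The authors mapped single-end, strand-specific RNA-seq reads to mm10 with STAR (2.5.3a in the submitters' processing notes), masked repeats with Bowtie 2 and RepeatMasker and used DESeq2. The authors deposited 1 table per cell type, in which the mean normalised count over 6 libraries (a signal per gene) was used. The other columns hold the authors' genotype comparison, its fold changes and p-values, and were not used. For eCLIP, the authors deposited CLIPper peaks per library, with a value of at most 0.05 in an unnamed column, read here as the CLIPper p, before and after the input filter. Per the file headers, reads were repeat-filtered and deduplicated by molecular identifier. No sample values of other series were present.

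Peaks were given to genes by the Ensembl ID in their name and merged where they overlapped by 1 nt. Genes, exons and splice sites came from GENCODE M21 (basic), and sequence from GRCm38, in Python 3.11.15 with pandas 2.3.3, NumPy 2.4.6, pysam 0.24.0 and matplotlib 3.10.9. Ranks are the percent of listed genes with a lower level. The merging, placing and motif steps were checked on simulated intervals and sequences. No test was run. Every member is named, as are other family genes with a mean of at least 10 or a filtered peak, and the 5 genes most like the member with the most peaks. Alternatives changed the input filter, p, replicates, merging, gene assignment, ranking, point of the region and motif.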

Additional observations from a re-analysis of the deposited data

Results flagged for a closer look

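By Dixon's criterion over the libraries of a cell type, 5 values stood apart from the others, among 14 sets of library values that had any spread. The criterion is set to flag about 1 in 20 sets of continuous values, and that rate does not hold for counts this small. A set in which all libraries but 1 are equal is always flagged, and each of the 5 flags is of that kind. In CD11b+, Ms4a6c had 2 filtered peaks in technical replicate 4 and 4 in each of the other libraries. Ms4a6d had 2 peaks in CD11b+ replicate 1 and 1 in each other library, and Ms4a3 had 1 in CD11b+ replicate 2 and 0 in the others. Lin- replicate 4, the library with the fewest filtered peaks (4040), held 0 peaks on the family and 0 members with a peak, while every other Lin- library held 1 peak on 1 member. The 2 flags of that library rest on the same absence of peaks.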

How the results depend on the processing

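No paired analysis was possible because no result comes from a test and the RNA-seq values are means over all libraries. Of 68 alternative values for 12 results, 60 were within a set tolerance of the reported value and 8 were outside it. The tolerance was 1.5 times for counts, 1 SD over libraries for shares of peaks and the exact 95% binomial interval for shares of regions, which is wide with 3 or 19 regions. With a CLIPper p below 0.001, the regions on the members fell from 19 to 9 in CD11b+ and from 3 to 1 in Lin-, the bound members in Lin- from 2 to 1, and the Lin- share per 10000 filtered peaks to 0.291. Asking for a peak in at least 2 biological replicates left 2 bound members in CD11b+, Ms4a6c and Ms4a6d, and 1 in Lin-, Ms4a3, whose peaks there lay in different regions. When only genes with a mean of at least 10 were ranked, 3 members in Lin- were above the middle rank, in place of 9. By their middles, 0% of the Lin- and 5.26% of the CD11b+ regions lay in an exon, in place of 33.3% and 10.5%. Leaving out each library gave 14 to 18 regions and 5 to 6 bound members in CD11b+ with a share of 8.70 to 12.3 per 10000, and 2 to 3 regions and 2 to 2 bound members in Lin- with a share of 1.01 to 1.45. Depth limits all peak counts, since read numbers are unknown, and the members' counts per Lin- library are 0 or 1.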
